A study of Mus musculus with 12 samples.

Results

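Immediate-early genes are measured here in the injured spinal cord of ApoE4 mice. The members are FOS, FOSB, JUN, JUNB, EGR1, ARC, NR4A1, DUSP1, IER2 and BTG2. They were chosen by gene symbol, as the rows of the authors' full table that carry 1 of these 10 symbols. The table lists 9 members among 13647 gene rows above the lesion and 9 among 12338 below it. FOSB has no row above the lesion and ARC has none below it, so 8 members are listed at both sites, among 12025 such symbols of 13957 in all.

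All mice were male, expressed human ApoE4 and were 4 months old when they received a contusion SCI at thoracic level 9. Short segments of cord next to the lesion, above or below it, were taken 14 days later for RNA-seq. The 12 libraries form 4 groups of 3: mice with both normal synj1 alleles (synj1+/+, labelled synj1Hom) above and below the lesion, and mice with 1 inactive synj1 allele (synj1+/-, labelled synj1Het) above and below it. synj1 encodes synaptojanin 1, a lipid phosphatase of the synapse that degrades PIP2, and the genotype comparison asks which transcripts differ when the gene dose is lowered. The controls here carry ApoE4 and the injury as well, and no sham or ApoE3 library was analysed here. The segments are whole tissue from 1 sex at 1 time, and the labels tie no library above the lesion to one below it. The animal numbers of the study's design equal the libraries of a single site per genotype. Segments above and below therefore probably come from the same mice, though the sources used here do not state it.

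Immediate-early genes are transcribed within minutes of a stimulus, without new protein synthesis, when kinases act on transcription factors such as CREB and SRF that already sit at their promoters. In neurons, calcium entry during firing switches them on, and FOS and ARC are widely used as markers of recently active cells. Glia, blood vessel cells and immune cells use the same genes in response to growth factors, cytokines and tissue damage. Their messenger RNAs are short-lived, so a measured level reflects the hours before the tissue was taken. The study's methods state that fresh-frozen cord was collected after isoflurane anesthesia and decapitation. Any part of anesthesia or handling in the members' levels was not tested.

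The table gives a single value for each group of 3 libraries. No spread between libraries can be computed from it, so every difference below is a description with no replicate check and no test. The values are the authors' group values, read as FPKM (fragments per kilobase of transcript, scaled to the mapped reads) plus 1, since the lowest value in the table is exactly 1. Ratios are log2 of the synj1Het value over the synj1Hom value on that scale, which understates differences of low genes. Reads were reduced to an equal number of reads per library separately at each site, so values above and below the lesion are set side by side only. In whole tissue, fewer cells of a type and less RNA per cell cannot be told apart.

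SYNJ1, the targeted gene (chr16:90936092-91013727, GRCm38.p6), was read first to check the labels. Above the lesion, the synj1Hom libraries had a SYNJ1 value of 1905 and the synj1Het libraries 2404, a log2 ratio of 0.34. Below the lesion it was 1847 and 2593, a log2 ratio of 0.49. SYNJ1 was therefore higher where the labels give 1 inactive allele, at both sites, and which bases the allele lacks is not given in the sources used here. Every direction below sets libraries labelled synj1Het against libraries labelled synj1Hom, and so rests on labels that SYNJ1 goes against. The study's methods state that genotypes were checked by PCR. APOE, the lipid carrier whose human form all mice express, was lower above the lesion (767 and 549) and higher below it (477 and 564). Reads were aligned to the mouse genome, and how reads of the human gene were counted is not given in the sources used here.

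Most immediate-early genes had a lower value in synj1Het at both sites, by less than 1.5-fold. Above the lesion 6 of the 9 listed members were lower and 3 were higher, and below it 8 of 9 were lower and 1 was higher. Over all genes, 51% were lower above the lesion and 47.2% below it. The median log2 ratio of the members was -0.22 above the lesion, with a range from -0.32 to 0.27, and -0.30 below it, with a range from -0.41 to 0.14. The medians of all genes were -0.00388 and 0.0144, with quartiles of -0.12 and 0.10 above and -0.15 and 0.16 below. JUN, JUNB, FOS, DUSP1, IER2 and BTG2 were lower at both sites, EGR1 was higher at both, and NR4A1 was higher above and lower below.

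**Figure D1:**
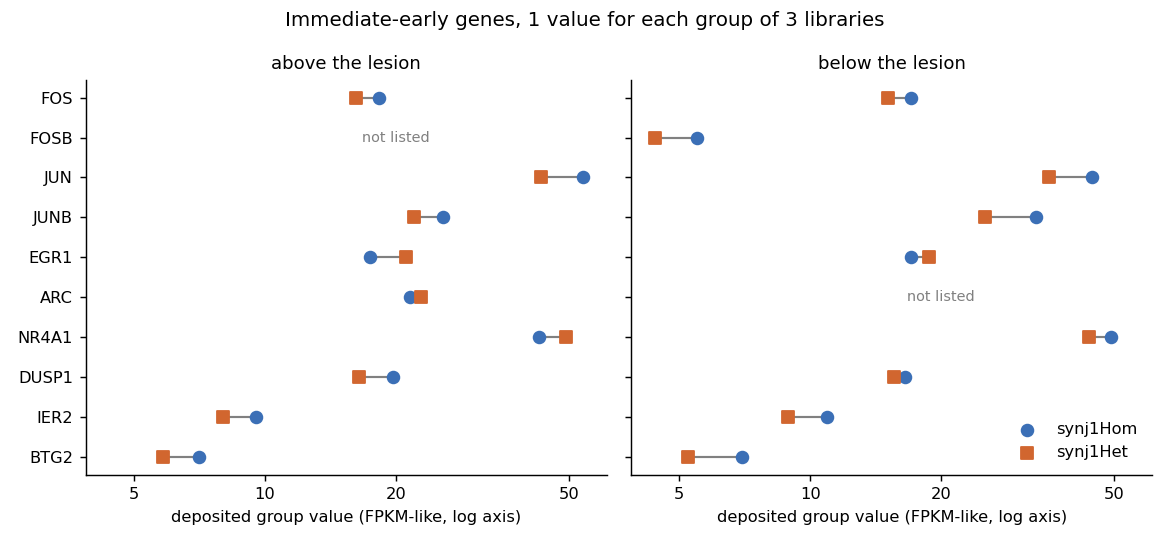
Deposited group value (horizontal log axis, FPKM-like) of each immediate-early gene above the lesion (left) and below it (right), with circles for synj1Hom and squares for synj1Het; each point is 1 value for 3 libraries and has no error bar. The squares lie left of the circles for 6 of 9 genes above the lesion and 8 of 9 below it.

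The promoters of the members were read for elements that inducible genes often carry close to their starts. RefSeq's promoter table for GRCm38.p6 matched 7 of the 10 members, and ARC, EGR1 and IER2 had no entry. The 250 bases before each start were searched on both strands for the cyclic AMP response element bound by CREB (CRE, TGACGTCA), its shorter core (CRE core, TGACG, which also lies within each full CRE), the AP-1 site bound by FOS and JUN proteins (TGANTCA), the TATA box (TATAAA) and the CArG box bound by SRF. The CRE core was found in 6 of the 7 members, all but JUN, and in 17.8% of the 32851 promoters of the table. The full CRE was found in BTG2 and DUSP1 and in 1.55% of all promoters. The TATA box was found in FOS, 33 to 28 bases before its start, and in 12.4% of all promoters. The AP-1 site (6.75% of all promoters) and the CArG box (1.47%) had 0 matches in the members, which says only that these letters are not in this window. The windows shown are those of both members with a full CRE, of FOS, a widely used activity marker, and of JUNB, which had the lowest ratio of the AP-1 genes below the lesion.

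Each window reads 5′ to 3′ along the gene's own strand and ends at the base before the start that the RefSeq table gives. For these 4 genes that start is the outermost base of the gene. Capitals mark each CRE and CRE core on either strand. They are BTG2 (chr1:134079156-134079405, minus strand), DUSP1 (chr17:26508473-26508722, minus strand), FOS (chr12:85473640-85473889, plus strand) and JUNB (chr8:84978749-84978998, minus strand).
BTG2: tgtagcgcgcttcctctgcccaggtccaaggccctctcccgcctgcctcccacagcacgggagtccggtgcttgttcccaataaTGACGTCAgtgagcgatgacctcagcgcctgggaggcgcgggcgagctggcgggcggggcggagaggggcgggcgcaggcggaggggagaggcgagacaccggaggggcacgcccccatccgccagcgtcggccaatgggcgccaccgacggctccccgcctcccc
DUSP1: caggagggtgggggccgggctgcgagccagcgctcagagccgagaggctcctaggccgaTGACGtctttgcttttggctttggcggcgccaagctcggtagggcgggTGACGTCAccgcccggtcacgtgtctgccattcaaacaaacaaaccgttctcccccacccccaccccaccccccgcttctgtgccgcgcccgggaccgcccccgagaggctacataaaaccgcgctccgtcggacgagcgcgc
FOS: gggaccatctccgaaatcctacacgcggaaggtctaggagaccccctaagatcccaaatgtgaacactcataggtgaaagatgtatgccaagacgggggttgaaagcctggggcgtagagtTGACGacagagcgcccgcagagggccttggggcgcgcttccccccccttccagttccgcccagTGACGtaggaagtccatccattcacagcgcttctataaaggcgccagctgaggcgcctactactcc
JUNB: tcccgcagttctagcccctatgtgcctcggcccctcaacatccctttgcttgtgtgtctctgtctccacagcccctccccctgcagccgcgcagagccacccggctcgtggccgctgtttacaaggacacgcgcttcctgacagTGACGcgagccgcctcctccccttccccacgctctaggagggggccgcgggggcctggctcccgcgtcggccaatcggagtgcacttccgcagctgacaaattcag
The full CRE lies 166 to 159 bases before the start of BTG2 and 143 to 136 bases before that of DUSP1. DUSP1 has 1 more CRE core, 191 to 187 bases before its start. FOS holds a CRE core at 129 to 125 and at 66 to 62 bases before its start. JUNB holds 1, at 106 to 102 bases before its start. Of the members not shown, FOSB holds 1 and NR4A1 holds 4, but their windows precede starts that lie 73 bases (FOSB) and 12944 bases (NR4A1) inside the gene, so these cores lie within the gene as annotated. A match describes letters in the window and says nothing of binding in these cords.

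The AP-1 genes encode leucine zipper proteins that pair with each other, a FOS protein with a JUN protein, and bind AP-1 sites. FOS (chr12:85473890-85477274) had a value of 18.3 in synj1Hom and 16.2 in synj1Het above the lesion, a log2 ratio of -0.17. Below the lesion its values were 17.0 and 15.1, a log2 ratio of -0.18, so the ratio of FOS was nearly equal at the sites. FOSB (chr7:19302696-19310118), a FOS relative whose stable splice form builds up with repeated neuronal activity, was listed only below the lesion. Its values there, 5.49 and 4.39, were the lowest of the members in both groups below the lesion, and its log2 ratio was -0.32.

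JUN (chr4:95049036-95052222), which pairs with FOS and is strongly induced in injured neurons, had the highest value of the members in the synj1Hom group above the lesion. Its values there were 53.9 and 43.2, which is 19.9% lower in synj1Het. Below the lesion they were 44.3 and 35.4, which is 20.1% lower. The log2 ratio was -0.32 at both sites, at percentile 7.58 of all genes above the lesion and percentile 11.5 below it, where the percentile is the share of genes of the site with a lower ratio. JUNB (chr8:84976909-84978748), a JUN relative with weaker activity that can restrain JUN, had values of 25.7 and 22.0 above the lesion, a log2 ratio of -0.22. Below the lesion its values were 32.9 and 25.2, a log2 ratio of -0.38, or 23.4% lower. All 4 AP-1 members were therefore lower in synj1Het wherever they were listed, and JUNB differed most between the sites among those listed at both.

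EGR1 and NR4A1 encode DNA-binding factors of other families, and above the lesion both had higher values in synj1Het, where the AP-1 genes had lower ones. EGR1 (chr18:34861207-34864956), a zinc finger factor linked to synaptic plasticity, had values of 17.4 in synj1Hom and 21.0 in synj1Het above the lesion, which is 20.7% higher. Its log2 ratio of 0.27 was the highest of the members and lay at percentile 93.9 of all genes. Below the lesion its values were 17.1 and 18.8, a log2 ratio of 0.14 at percentile 72.8. EGR1 was the only member higher in synj1Het at both sites. NR4A1 (chr15:101253902-101274795), an orphan nuclear receptor induced in neurons and in macrophages, had values of 42.7 and 49.3 above the lesion, a log2 ratio of 0.21 at percentile 89.5. Below the lesion its values were 49.0 and 43.7, a log2 ratio of -0.16 at percentile 23.2.

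ARC (chr15:74669081-74672570) encodes a synaptic protein that drives endocytosis of AMPA-type glutamate receptors, and its messenger RNA travels into dendrites. It was listed only above the lesion, with values of 21.6 and 22.8 and a log2 ratio of 0.08 at percentile 70.6. This is the smallest absolute ratio of the members above the lesion. FOS and ARC, both used as activity markers, thus stood on opposite sides of 0 there.

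The remaining members are a phosphatase, a small nuclear protein and a regulator of cell division. DUSP1 (chr17:26505591-26508472) encodes a phosphatase that switches off the MAP kinases that induce it. Its values were 19.7 and 16.5 above the lesion, a log2 ratio of -0.25, and 16.5 and 15.5 below it, a log2 ratio of -0.08. DUSP1 was thus the member nearest to 0 below the lesion. IER2 (chr8:84661331-84662852), the small nuclear protein, had values of 9.54 and 8.00 above the lesion and 11.0 and 8.87 below it, with log2 ratios of -0.25 and -0.30. BTG2 (chr1:134074865-134079155), a p53-responsive protein that slows cell division and promotes decay of messenger RNAs, had the lowest level of the members above the lesion. Its values were 7.05 and 5.84 above the lesion, which is 17.1% lower in synj1Het, and 6.96 and 5.23 below it, which is 24.8% lower. Its log2 ratio of -0.41 below the lesion, at percentile 8.01 of all genes, was the lowest of all member values. These 3 genes were all lower in synj1Het at both sites.

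Set against all genes, most members lay outside the middle of the ratios and within 1.5-fold. Above the lesion 8 of 9 members lay outside the quartiles of all genes (6 below the lower and 2 above the upper quartile, ARC within), and below the lesion 7 of 9 did, all under the lower quartile, with DUSP1 and EGR1 within. By definition, the quartiles leave as many of all genes outside them as between them. No member was past 1.5-fold at either site in either direction (0 of 9 at each). Among all genes above the lesion, 0.791% were higher and 1.94% lower by 1.5-fold or more, and below the lesion 1.16% were higher and 4.38% lower. At a lower limit, an absolute log2 ratio of 0.322, 0 members were past it above the lesion, where 4.18% of all genes were higher and 7.45% lower. Below the lesion 4 of 9 were lower past this limit (BTG2, JUNB, JUN and FOSB) and 0 were higher, where 8.06% of all genes were higher and 11.5% lower. JUN and FOSB lay just past it below the lesion, both at -0.323, and JUN just short of it above, at -0.320. Among the 6294 genes below the lesion with a mean level within the range of the members, 13.7% were lower past this limit and 50.1% were lower by any amount. Above the lesion 52.5% of the 6217 such genes were lower.

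**Figure D2:**
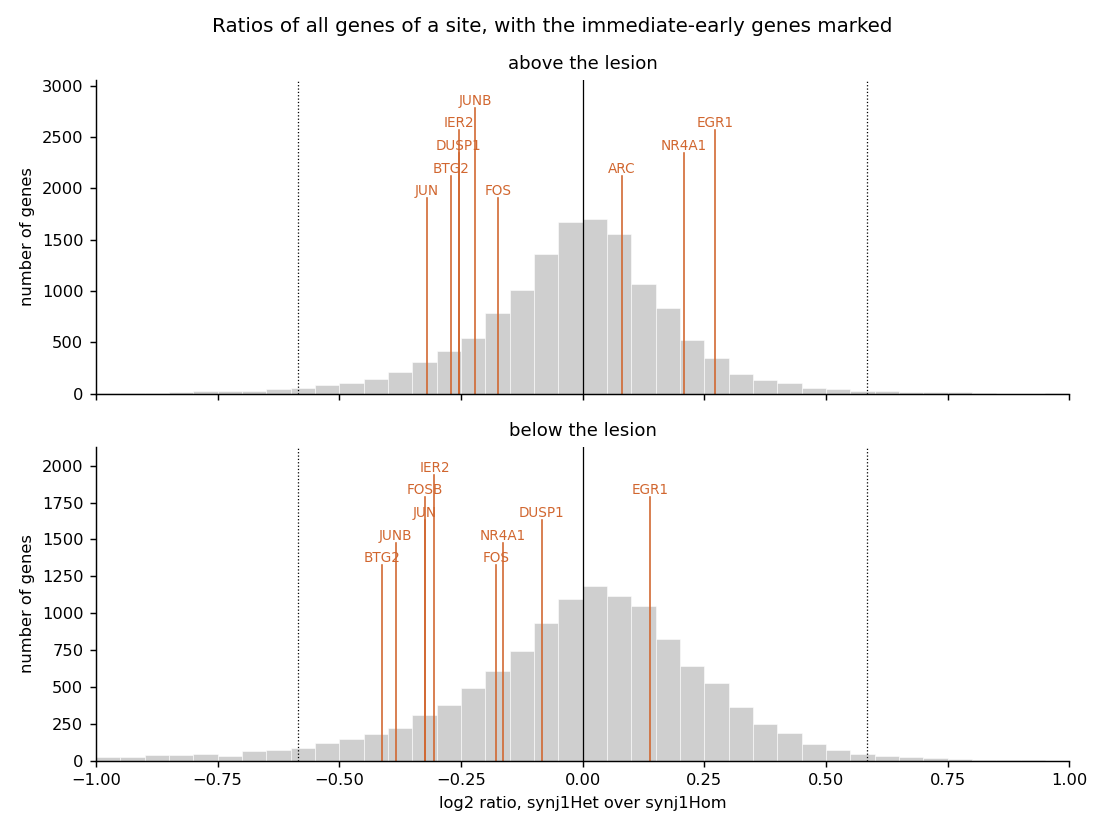
Histogram of the log2 ratio (synj1Het over synj1Hom, horizontal axis, cropped at -1 and 1) over all genes above the lesion (top) and below it (bottom), with the number of genes on the vertical axis, orange lines at the immediate-early genes (their heights only space the labels) and dotted lines at 1.5-fold. All members lie between the dotted lines, and 6 of 9 above and 8 of 9 below lie left of 0.

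The members' levels were low to middling for the tissue. In synj1Hom they spanned 7.05 to 53.9 above the lesion, percentiles 13.2 to 60.2 of all genes, where the median gene had a value of 36.5. Below the lesion they spanned 5.49 to 49.0, percentiles 9.93 to 60.8, with a median gene of 32.6. JUN and NR4A1 were the highest members in every group and lay above the median gene in each. Summed over the 9 listed members, the level was 215.8 in synj1Hom and 204.9 in synj1Het above the lesion. Below the lesion the sums were 200.2 and 172.3, over a list in which FOSB takes the place of ARC. In synj1Hom the order above the lesion was JUN, NR4A1, JUNB, ARC, DUSP1, FOS, EGR1, IER2 and BTG2, and below it NR4A1, JUN, JUNB, EGR1, FOS, DUSP1, IER2, BTG2 and FOSB. With 1 value a group, no neighbours in that order can be called different.

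The genotype ratios of the 8 members listed at both sites were then set side by side. The median of the ratio below minus the ratio above was -0.09, and over 12023 genes listed once at both sites it was 0.02, with quartiles of -0.14 and 0.17. FOS and JUN had nearly equal ratios at the sites, with differences of -0.00263 and -0.00309. IER2 differed by -0.05, EGR1 by -0.13, BTG2 by -0.14, JUNB by -0.16 and DUSP1 by 0.17, all with the same sign at both sites. NR4A1 had the largest difference, -0.37, which was larger in absolute size than for 84.7% of the genes. In all, 7 of 8 members had ratios of the same sign at both sites, against 60.4% of the genes. Of the members 6, or 75%, were lower at both sites, against 29.1% of the genes. The sites probably share mice, so the second site cannot be taken as an independent repeat of the first, for the members and for all genes alike.

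**Figure D3:**
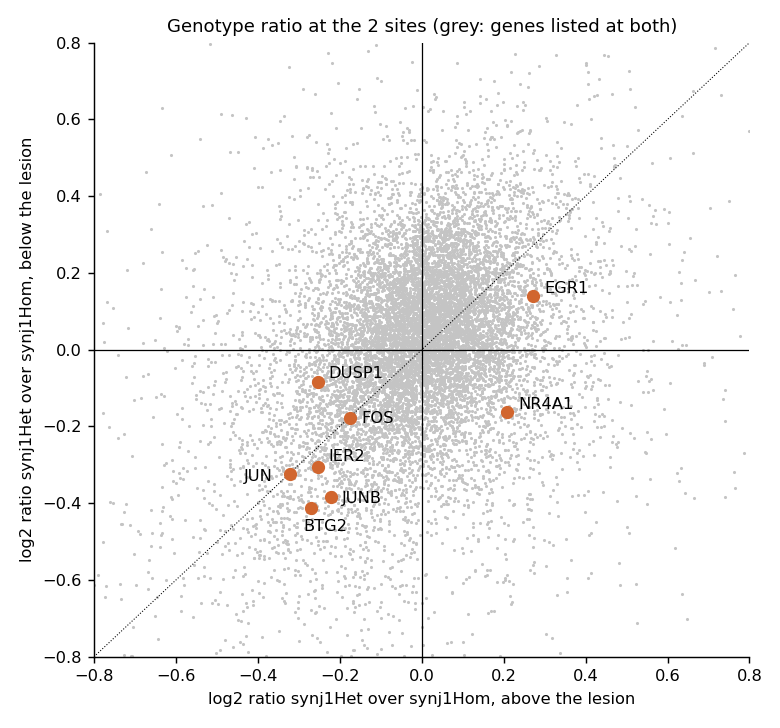
Log2 ratio (synj1Het over synj1Hom) above the lesion (horizontal axis) against below it (vertical axis) for the 8 immediate-early genes listed at both sites (orange, named) and for all genes listed at both sites (grey, cropped at -0.8 and 0.8); the dotted diagonal marks equal ratios. FOS and JUN lie on the diagonal, EGR1 alone lies in the upper right and NR4A1 alone in the lower right.

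Most other immediate-early transcription factors listed were also lower in synj1Het, against 51% of all genes above the lesion and 47.2% below it. Of 20 such genes, 17 were listed above the lesion, 11 of them lower, with a median log2 ratio of -0.14. Below the lesion 16 were listed and 12 were lower, with a median of -0.24. Past 1.5-fold lay NPAS4 at both sites and EGR2 below the lesion. Among all genes, 0.791% were higher and 1.94% lower by as much above the lesion. Below it 1.16% were higher and 4.38% lower. The level of NPAS4 in synj1Hom was low, at percentile 11.3 of all genes above the lesion and 11.9 below it. NPAS4, a factor induced in neurons by calcium entry and little by other stimuli, was higher in synj1Het, at 6.23 and 9.67 above the lesion and 6.19 and 9.44 below it, with log2 ratios of 0.64 and 0.61. EGR2, an EGR1 relative that also drives myelination in Schwann cells and is expressed in macrophages, had values of 31.9 and 33.3 above the lesion and 42.4 and 17.8 below it, with log2 ratios of 0.06 and -1.25. EGR2 and EGR1 thus had ratios of opposite sign below the lesion.

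Of 26 other effector and feedback genes, 25 were listed at each site, 16 lower above the lesion with a median log2 ratio of -0.13 and 17 lower below it with a median of -0.19. Of all genes, 51% were lower above the lesion and 47.2% below it. Past 1.5-fold lay 0 above the lesion and 2 below it, both lower, where 4.38% of all genes were lower past 1.5-fold. CCN2, a matrix-associated growth factor modulator, had values of 6.48 and 4.90 above and 14.5 and 6.61 below, with log2 ratios of -0.41 and -1.14. SOCS3, a brake on cytokine signaling, had values of 26.8 and 19.7 above and 27.7 and 16.3 below, with log2 ratios of -0.44 and -0.76. Both were lower in synj1Het at each site.

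The kinases and transcription factors upstream of the members did not lean to either side as the members did. All 35 were listed above the lesion, 17 of them lower, with a median log2 ratio of 0.00291. Below the lesion 33 were listed and 14 were lower, with a median of 0.05. The shares of all genes that were lower were 51% above the lesion and 47.2% below it. Only ELK3, an SRF partner active in blood vessel cells, was past 1.5-fold among them, and only below the lesion. Its values were 70.5 and 43.9 there, a log2 ratio of -0.68, and 54.6 and 44.1 above the lesion. Among all genes, 1.94% were lower by 1.5-fold or more above the lesion and 4.38% below it. The shares higher by as much were 0.791% and 1.16%. CREB1, SRF and the MAP kinases among these genes were within 1.5-fold at both sites where they were listed.

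**Figure D4:**
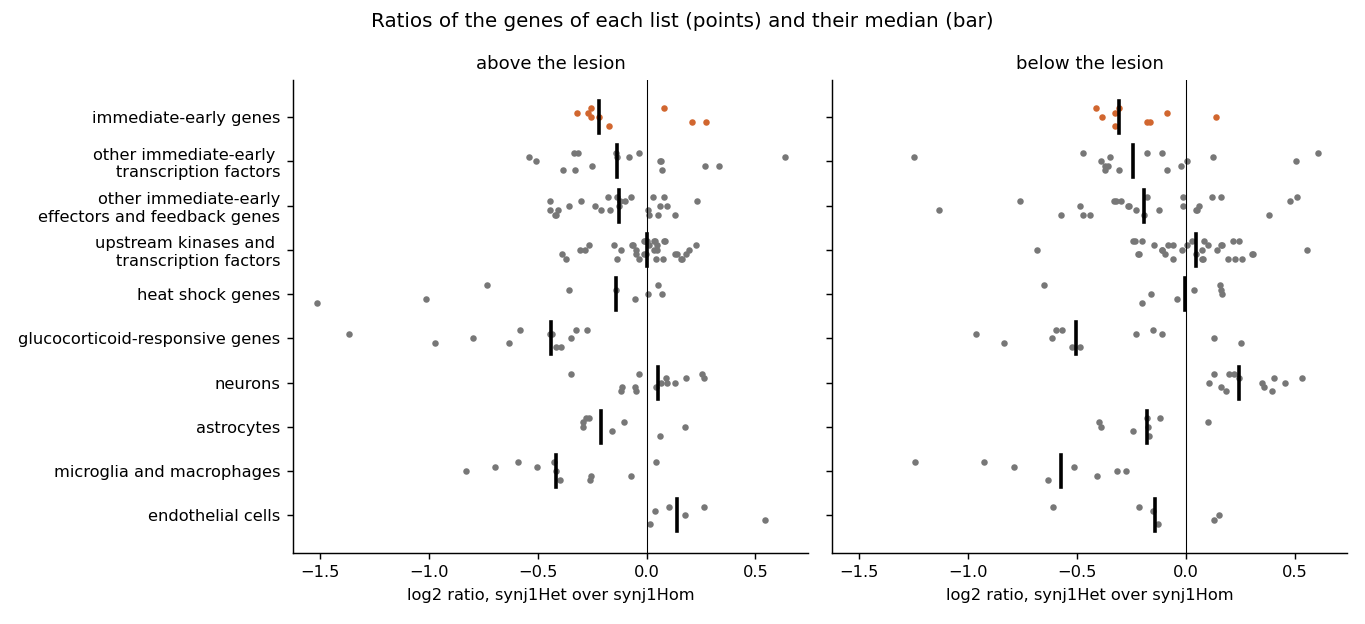
Log2 ratio (synj1Het over synj1Hom, horizontal axis) of each listed gene of 10 gene lists above the lesion (left) and below it (right), 1 point a gene (immediate-early genes in orange), with a black bar at the median of each list. The medians of the immediate-early genes, -0.22 and -0.30, lie left of 0, and those of microglia and macrophages and of glucocorticoid-responsive genes lie further left at both sites.

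Several lists of cell type markers differed between the same groups as the members. The shares of all genes that were lower were 51% above the lesion and 47.2% below it. Neuron markers above the lesion, with 6 of 14 lower, lay near that share. Astrocyte markers were lower for 6 of 8 genes above the lesion (median log2 ratio -0.21, summed level 18037 and 14936) and for 7 of 8 below it (-0.18, 16186 and 12690). Microglia and macrophage markers were lower for 10 of 11 listed genes above (-0.41, 1410 and 1013) and 8 of 8 below (-0.57, 1815 and 964). LYZ2 was furthest among the latter, at 1101 and 465 below the lesion. Neuron markers were higher for 8 of 14 above (0.05, 10792 and 12090) and 13 of 13 below (0.24, 9309 and 11735). No marker of any list stood at the lowest value of the table. The part of cell makeup in the members' ratios was not tested.

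The counts of the other cell types also stand beside 51% of all genes lower above the lesion and 47.2% below it. Fibroblast markers were lower for 6 of 6 genes at both sites. Their sum below the lesion was 423 in synj1Hom and 104 in synj1Het, against 95.6 and 79.6 above. COL3A1, a fibrillar collagen of scar tissue, was 69.9 and 7.91 below the lesion. Red blood cell markers were higher for 5 of 5 genes at both sites, with sums of 253 and 1138 above the lesion and 634 and 830 below it. Oligodendrocyte precursor markers were lower for 5 of 5 above (median log2 ratio -0.12) and 3 of 5 below (-0.16). Endothelial markers were higher for 6 of 6 above (0.14) and lower for 4 of 6 below (-0.14), and pericyte and smooth muscle markers were higher for 3 of 4 above (0.24) and lower for 4 of 4 below (-0.39). Oligodendrocyte markers, of which 3 of 7 were listed at each site, had medians of -0.05 and 0.14. Neutrophil markers were listed for 2 of 6 genes above (0.09) and 3 of 6 below (-0.40), Schwann cell markers for 0 of 4 above and 2 of 4 below (-0.64), and skeletal muscle markers for 0 of 5 above and 1 of 5 below (-0.27). The part of these cells in the members' ratios was not tested either.

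Glucocorticoid-responsive genes and abundant non-coding RNAs were mostly lower in synj1Het at both sites, while heat shock genes below the lesion were not. The shares of all genes that were lower were 51% above the lesion and 47.2% below it. Of 12 glucocorticoid-responsive genes, all 12 were lower above the lesion (median log2 ratio -0.44) and 10 were lower below it (-0.50). FKBP5, a chaperone partner of the glucocorticoid receptor, was 14.7 and 8.47 above the lesion and 15.5 and 10.2 below it. ZBTB16 was furthest at both sites, with log2 ratios of -1.37 and -0.97, HIF3A had -0.97 and -0.84, and CDKN1A had -0.58 and -0.60. SGK1 was lower above the lesion, at 519.6 and 335 (-0.63), and higher below it, at 344 and 409.8 (0.25). Heat shock genes were lower for 6 of 9 above (-0.14) and 4 of 8 below (-0.00167). The inducible chaperones HSPA1A and HSPA1B, near-identical copies whose reads can be split between them, were 150.0 and 74.4 and 22.2 and 7.78 above the lesion. Below it HSPA1A was 60.4 and 58.7 and HSPA1B 6.66 and 5.80, log2 ratios of -0.04 and -0.20. HSPB1 was lower at both sites, with log2 ratios of -0.73 and -0.65. Abundant non-coding RNAs were lower for 6 of 7 at both sites, with medians of -1.11 and -0.70, and RN7S1, the RNA of the signal recognition particle, had values of 221 and 58.2 above and 113 and 66.7 below the lesion. The part of stress, hormone or RNA handling in the members' ratios was not tested.

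The genes with group values most like those of the members were sought over the 4 groups, as log2 values centred on each gene's mean. Among 9279 other genes with a value of at least 10 in every group, SNRPA lay nearest to the median profile of the 8 members, at a distance of 0.0122, followed by ADORA2B (0.0152), SNAP29 (0.0155), MBTPS1 (0.0155) and TSTD2 (0.0174). SNRPA, a splicing protein, had values of 105 and 97.3 above and 104 and 92.5 below the lesion. The least value of 10 was not asked of the members, of which BTG2 and IER2 had values under it. The members themselves were less alike, with a median distance of 0.25 from that profile. Of the 9279 genes, 4295 lay nearer to it than the median member. The measure over 4 values thus did not set the members apart from other genes.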

How the data were processed

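RNA-seq of cord segments on either side of a T9 contusion in male ApoE4 mice gave 12 libraries, placed in 4 groups by their labelled genotype and location. Libraries were prepared with a TruSeq v2 kit, which does not mark strand, so overlapping antisense transcripts cannot be told apart. The submitters' processing notes name STAR 2.5.4b, Cuffdiff 1.3.0 and genome build GRCm38.p6, and the study's methods describe that surplus reads were randomly discarded until all libraries of a site had the same number, before upper quartile normalization. The annotation used for counting is not given in the sources used here.

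The authors deposited 1 table of all genes with 1 value per group and site, in a unit that the file does not state. The lowest deposited value is exactly 1, and the values were read as FPKM plus 1. The table has 0 columns of single libraries, so spread, depth, tests and results without a replicate could not be computed. Its fold change, log2 fold change, p-value, q-value and significance columns, and a shorter list cut on p, hold the authors' own comparisons and were not used.

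Ratios were computed as log2 of the synj1Het (synj1+/-) over the synj1Hom (synj1+/+) group value. Known ratios put into the group values came back as set, which checks the arithmetic only. Genes past 1.5-fold were counted at each site, and ratios were set beside those of all genes of the site. Alternatives were 1 taken off or 10 added to the values, a least value of 10 or 100, median centring, upper quartile scaling, a lower and a higher fold limit (absolute log2 ratios of 0.322 and 1), and a background of genes within the members' range of levels.

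The genes named are the 10 members, SYNJ1 and APOE, and genes of the other lists past 1.5-fold, up to 5 per list and site and up to 3 for cell types. They also include the 5 genes nearest to the members' median profile. The other lists are immediate-early transcription factors, effectors and feedback genes, upstream kinases and factors, heat shock genes, glucocorticoid-responsive genes, abundant non-coding RNAs and cell type markers. The members and lists were chosen with earlier results of these data known, and some genes covered by the rule are given only in counts. Positions and promoters came from RefSeq on GRCm38.p6. Python 3.11.15, numpy 2.4.6, pandas 2.3.3 and matplotlib 3.10.9 were used.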

Additional observations from a re-analysis of the deposited data

Results flagged for a closer look

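NR4A1 was flagged because its ratio pointed in opposite directions at the 2 sites. It was higher in synj1Het above the lesion, with a log2 ratio of 0.21, and lower below it, with a log2 ratio of -0.16. The ratio below minus the ratio above was -0.37, and the difference was not tested. APOE was flagged for the same reason, with log2 ratios of -0.48 above and 0.24 below the lesion and a difference of 0.73 that was likewise not tested.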

How the results depend on the processing

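Values were taken as stable when they kept their sign and stayed within 1.5 times. None of the 140 member ratios recomputed under the alternatives changed sign, but most of them could not have done so. Only median centring and upper quartile scaling could change a sign, and each did so for 0 of 18 ratios. Adding 10 to the values, which by construction shrinks the ratios of low genes, moved the members' median log2 ratio to -0.11 (above) and -0.13 (below) and the median difference between the sites to -0.041. With a least value of 10 in either group, 7 members remained below the lesion and their median was -0.18. With an absolute log2 ratio of 0.322 in place of 1.5-fold as the limit, the members lower past the limit below the lesion numbered 4 in place of 0. The other 67 summary values were stable by this rule. Many of these had no way to move, since a new fold limit or background leaves the members' ratios as they are. The rule also compares counts without regard to how many members remain. With a least value of 10, 4 of 7 members were lower above the lesion, against 6 of 9 without it. Of all genes kept there, 50.1% were lower. Below the lesion 6 of 7 members were lower, against 46.1% of all genes kept. With a least value of 100, 0 members remained, so that alternative gave no value for them. Leaving out a replicate could not be run, because each group has a single value. No paired analysis was possible because the table holds no value per library. The depth of single libraries limits what low members such as FOSB and BTG2 can show and cannot be read from the table.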

Other observations

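Further genes of neuronal activity, picked after their values were seen, had log2 ratios on both sides of 0. They come from lists in which most genes were lower in synj1Het, 16 of 25 effector and feedback genes above the lesion and 17 of 25 below it. EGR3, a relative of EGR1, had values of 7.51 and 9.45 above the lesion and 6.95 and 9.86 below it in synj1Hom and synj1Het, log2 ratios of 0.33 and 0.51. BDNF, a neurotrophin whose transcription follows neuronal activity, had values of 35.2 and 37.2 above the lesion and 23.1 and 32.9 below it, log2 ratios of 0.08 and 0.51. NRN1, a membrane-anchored protein that promotes neurite growth, had values of 125 and 147 above and 124 and 172 below, log2 ratios of 0.23 and 0.48. HOMER1, a scaffold of glutamate receptors with an activity-induced short form, had log2 ratios of 0.09 and -0.01. INHBA, an activin subunit that is also induced by neuronal activity, was lower at both sites, with log2 ratios of -0.41 and -0.44. VGF, a secreted neuropeptide precursor, had log2 ratios of -0.21 and 0.04.

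Among feedback genes picked in the same way, ZFP36, which promotes decay of cytokine messenger RNAs, had log2 ratios of -0.42 above and -0.47 below the lesion. JUND, the JUN relative least dependent on a stimulus, had values of 455 and 476 above the lesion and 403 and 439 below it, log2 ratios of 0.07 and 0.12. None of these differences was tested here.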
